A study of Homo sapiens with 36 samples.

Results

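A549 cells, an epithelial line from a human lung adenocarcinoma, were kept without glucose for 16 or 6 h, and the later time was compared with the earlier one. The comparison used 10 of the 36 libraries of the study, chosen by their labels: 6 libraries of 16 h (siATF6 and siControl, biological replicates 1, 2 and 3 of each) and 4 libraries of 6 h (siATF6 and siControl, replicates 1 and 3 of each). All were wild-type cells of 1 line, transfected while being plated with DharmaFECT and an siRNA at 100 nM, either against ATF6 or non-targeting. Both times then had 0 mM glucose, no pyruvate, 10% dialysed serum and 2 mM glutamine. The siRNA was a term of the model, so that the time difference was taken within each siRNA. Libraries of the same siRNAs in 25 mM glucose (6 of 16 h, 4 of 6 h) gave the time difference in fed cells. Another 5 libraries with siATF4 in 0 mM glucose (3 of 16 h, 2 of 6 h) gave it with an siRNA against ATF4.

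Cells without glucose lose the fuel of glycolysis and also the sugar units of N-linked glycans, and unglycosylated proteins misfold in the endoplasmic reticulum (ER). The unfolded protein response then raises ER chaperones through ATF6 and through IRE1 with its target XBP1. Its PERK branch phosphorylates eIF2α, which raises translation of ATF4, the regulator of the integrated stress response and of DDIT3 (CHOP). Nutrient loss is also known to stop cell division, and the E2F-driven genes of DNA replication are then lowered. The response had begun by 6 h, and the comparison describes which transcripts rose or fell in the hours after.

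The 6 h libraries of replicate 2 were left out because their glucose labels are doubtful. HSPA5, the ER chaperone BiP, was higher in 0 than in 25 mM glucose in the 6 h libraries of replicates 1 and 3, at 4070 and 2842 against 1199 and 929 CPM (counts scaled to a common library total) with siATF6 and at 5400 and 4292 against 1004 and 759 CPM with siControl. In replicate 2 it stood the other way, at 734 CPM in the library labelled 0 mM against 2060 CPM in the library labelled 25 mM with siATF6, and at 682 against 3366 CPM with siControl. These CPM were scaled over 24 libraries and differ slightly from those below. This choice rests on a measured response. The p-values of HSPA5, and of genes that move with it such as DDIT3, are therefore not independent of the choice. Calls that the choice changes are given below, and with those libraries kept 5990 genes passed the test of time. The library totals ran from 41061687 to 53132041 counts at 16 h and from 40989096 to 65300057 counts at 6 h. The share of mitochondrial transcripts was 2.08 to 4.71% at 16 h and 1.73 to 6.00% at 6 h. On the first principal component (32.7% of the variance) the libraries parted by replicate within each time, and the times overlapped. At 16 h replicate 1 scored 37.1 and 43.7, against -12.2 to -2.71 in replicates 2 and 3. At 6 h replicate 1 scored 2.40 and 2.86, and replicate 3 scored -33.5 and -30.7. The second component (26.6%) separated the times, with scores of -28.8 to 2.48 at 16 h and 8.52 to 34.2 at 6 h. Epithelial keratins and EPCAM were measured in all libraries, whereas the surfactant genes SFTPB and SFTPC and the lung factor NKX2-1 stayed below the filter on low counts. Of markers of other cell types, 6 of 10 for fibroblasts, 3 of 9 for endothelium and 3 of 12 for blood cells passed that filter, while COL1A2, DCN, PECAM1, VWF, PTPRC and HBB did not. In libraries of whole cultures, fewer cells expressing a gene and less RNA per cell cannot be told apart.

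Between 6 and 16 h without glucose, transcripts of the ER folding and secretory machinery, of ribosomal proteins and of snoRNA host genes rose, and transcripts of DNA replication and mitosis fell, while DDIT3, ATF4 and XBP1 did not pass the test of time. Of 17970 genes tested, 5474 (30.5%) passed an adjusted p of 0.05 in edgeR's quasi-likelihood test with Benjamini-Hochberg adjustment. They comprised 2636 genes (14.7%) higher at 16 h and 2838 genes (15.8%) lower at 16 h, and 459 of the higher and 579 of the lower genes changed at least 2-fold. For 3529 genes (19.6%) no 16 h library overlapped any 6 h library, with 1760 (9.79%) higher and 1769 (9.84%) lower at 16 h. The median log2 fold change over all genes tested was -0.00. Lists of genes written from general knowledge are described by how many of their tested members were called, against these shares of all genes, and by their median.

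**Figure D1:**
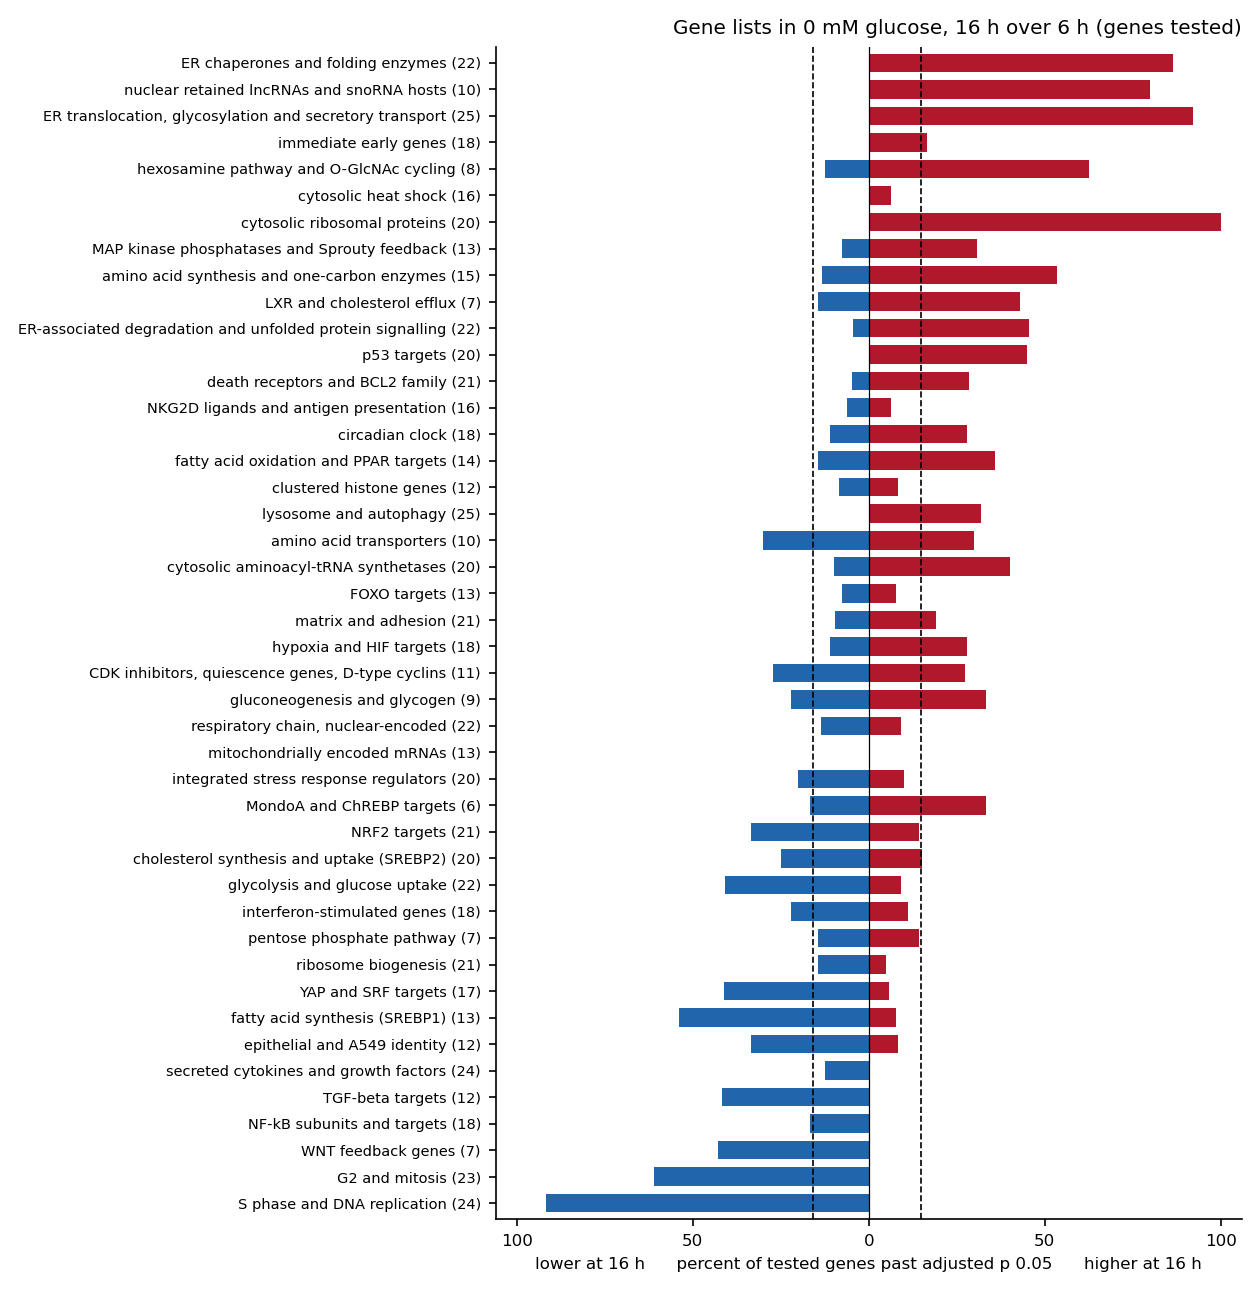
Percent of the tested genes of each list that were past an adjusted p of 0.05 in 0 mM glucose, 16 h over 6 h, with bars to the right for genes higher at 16 h and bars to the left for genes lower at 16 h. The number of tested genes is in brackets and the dashed lines mark the shares of all genes, 14.7% higher and 15.8% lower; all 20 ribosomal protein genes and 23 of 25 translocation and transport genes are to the right, and 22 of 24 S phase genes are to the left.

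ER chaperones and folding enzymes rose as a group after 6 h. Of 22 tested, 19 were higher at 16 h and none was lower, with a median log2 fold change of 0.90, and for 16 of them the libraries of both times did not overlap. HSPA5 stood at 7917, 7608 and 7270 CPM with siATF6 and at 10890, 10590 and 9915 CPM with siControl at 16 h. At 6 h it had 4061 and 2835 CPM with siATF6 and 5386 and 4278 CPM with siControl. Every 16 h library was thus above every 6 h library, also across siRNAs. Its mean was 9031 ± 1614 CPM at 16 h (SD, n = 6) and 4140 ± 1046 CPM at 6 h (SD, n = 4), a log2 fold change of 1.12 (SE 0.10, adjusted p = 3.51e-05). In 25 mM glucose HSPA5 had 712 ± 19.7 CPM at 16 h and 970 ± 182 CPM at 6 h.

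HSP90B1, the ER form of the HSP90 chaperone (GRP94), had 2460, 2475 and 2294 CPM with siATF6 and 4584, 4595 and 4209 CPM with siControl at 16 h. Its 6 h values were 1243 and 904 CPM with siATF6 and 1776 and 1694 CPM with siControl. The times did not overlap, and each siATF6 library lay below the siControl libraries of the same time. The log2 fold change was 1.26 (SE 0.10, adjusted p = 8.94e-06). HYOU1, a nucleotide exchange factor for HSPA5, averaged 1088 ± 177 CPM at 16 h and 458 ± 120 CPM at 6 h, a log2 fold change of 1.25 (adjusted p = 7.45e-06). SIL1, another exchange factor, averaged 77.7 ± 4.18 and 38.8 ± 2.94 CPM at 16 and 6 h. DNAJC10, an ER reductase and co-chaperone, averaged 444 ± 36.0 CPM at 16 h and 231 ± 25.0 CPM at 6 h. The 3 members that were not called were DNAJB9 (-0.03), SDF2L1 (0.34) and ERO1A (0.11, log2 fold changes), named because they are the exceptions. DNAJB9, a co-chaperone of HSPA5 and IRE1 target, had 135 ± 36.9 CPM at 16 h and 137 ± 33.4 CPM at 6 h, against 13.2 ± 2.59 and 18.6 ± 7.26 CPM in 25 mM glucose.

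The promoters of these genes are known for the ER stress response element, which ATF6 binds together with NF-Y. It has the letters CCAAT and, after 9 further bases of any kind, CCACG. This spaced pair was counted on either strand, in windows from 250 bases before each RefSeq start to shortly after it. It occurs in 7 of 21 ER chaperone genes of the list that have a RefSeq promoter (33.3%), and in 25 of 27305 genes of the RefSeq table (0.0916%). The sequences below hold only the 250 bases before the start. The promoters of HSPA5 (chr9:125241344-125241593, minus strand), HSP90B1 (chr12:103930160-103930409, plus strand) and CRELD2 (chr22:49918384-49918633, plus strand), from RefSeq on GRCh38.p14, are shown as examples of genes that rose by more than 2-fold and hold the letters. ERO1B, at 2.02-fold, is also among the genes with the letters and is not shown. Capitals mark the element, which HSP90B1 carries in both orientations.
HSPA5: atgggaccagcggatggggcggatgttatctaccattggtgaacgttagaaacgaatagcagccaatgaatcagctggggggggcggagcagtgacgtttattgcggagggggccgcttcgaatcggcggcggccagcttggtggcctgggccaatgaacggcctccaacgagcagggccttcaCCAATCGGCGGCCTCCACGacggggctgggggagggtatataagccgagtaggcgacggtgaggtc
HSP90B1: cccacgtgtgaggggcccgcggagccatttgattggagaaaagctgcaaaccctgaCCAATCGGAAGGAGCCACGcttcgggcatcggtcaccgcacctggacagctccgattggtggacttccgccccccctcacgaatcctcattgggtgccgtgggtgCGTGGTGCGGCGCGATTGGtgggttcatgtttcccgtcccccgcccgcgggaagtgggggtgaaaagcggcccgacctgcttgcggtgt
CRELD2: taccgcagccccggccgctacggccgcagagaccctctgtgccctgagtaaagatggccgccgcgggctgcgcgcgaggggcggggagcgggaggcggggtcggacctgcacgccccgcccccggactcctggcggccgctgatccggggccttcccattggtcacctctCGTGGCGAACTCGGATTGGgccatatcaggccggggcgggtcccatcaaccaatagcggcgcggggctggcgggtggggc
A match is a description of the letters, not a measured binding site. CRELD2, an ER-resident protein with disulfide isomerase activity, had 187, 179 and 158 CPM with siATF6 and 439, 445 and 466 CPM with siControl at 16 h. At 6 h it had 97.7 and 62.3 CPM with siATF6 and 223 and 174 CPM with siControl. Within each siRNA the times did not overlap, whereas the siATF6 libraries of 16 h reached only into the range of the siControl libraries of 6 h. CRELD2 was named after its values were seen, and its log2 fold change was 1.15 (SE 0.12, adjusted p = 8.14e-05).

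Proteins that bring new chains into the ER, add glycans and carry cargo onward rose in the same direction. In this list of 25, 23 were higher at 16 h and none was lower, with a median of 0.64. STT3A, a catalytic subunit of the oligosaccharyltransferase, ranged from 260 to 310 CPM at 16 h with a median of 280 CPM, against 165, 153, 146 and 151 CPM at 6 h (siATF6 replicates 1 and 3, then siControl replicates 1 and 3). The times did not overlap, and the log2 fold change was 0.88 (SE 0.06, adjusted p = 3.17e-06). SEC11C of the signal peptidase, SSR4 of the translocon-associated complex and SEC63, which works with HSPA5 at the translocon, had log2 fold changes of 1.01, 0.93 and 0.73.

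Genes of ER-associated degradation and of the signalling arms were divided. Of 22 tested, 10 were higher and 1 was lower at 16 h, with a median of 0.28, and without siATF6 6 h replicate 3 the lower ones were 3. SEL1L, the scaffold of the HRD1 ubiquitin ligase, had 437, 375 and 343 CPM with siATF6 and 780, 772 and 812 CPM with siControl at 16 h. Its 6 h values were 245 and 202 CPM with siATF6 and 402 and 411 CPM with siControl, so the times separated within each siRNA but overlapped across them. SEL1L, the membrane channel protein DERL1 and the glycan-binding factors OS9 and ERLEC1 rose by 0.86, 0.59, 0.65 and 0.56 on the log2 scale. EDEM3, a mannosidase that marks glycoproteins for degradation, fell to 29 ± 2.58 CPM at 16 h, against 43.8 ± 7.31 CPM at 6 h (log2 fold change -0.59, adjusted p = 0.000566). HERPUD1, a membrane protein of the same ligase, was picked after its values were seen. It had 481 ± 64.2 CPM at 16 h and 569 ± 183 CPM at 6 h, with a log2 fold change of -0.21 (adjusted p = 0.187).

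**Figure D2:**
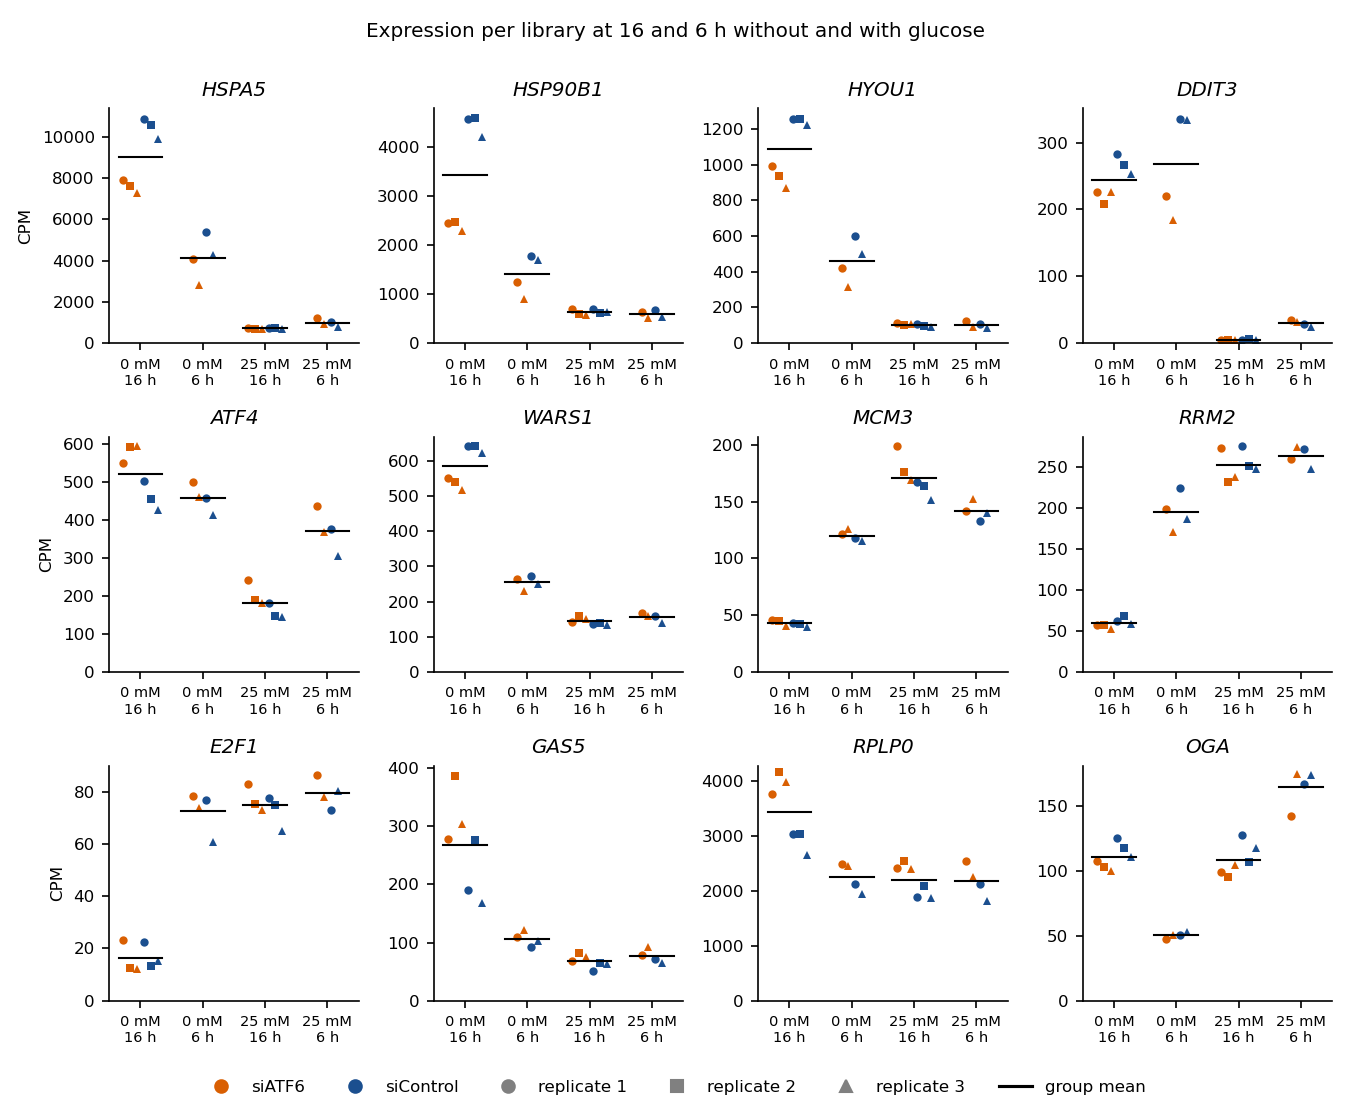
CPM of 12 genes in each library of siATF6 (orange) and siControl (blue) in 0 mM glucose at 16 and 6 h and in 25 mM glucose at 16 and 6 h; marker shapes give the replicate and black bars the mean of the group, and each vertical axis starts at 0. HSPA5, HSP90B1, HYOU1 and WARS1 were highest at 16 h without glucose, MCM3, RRM2 and E2F1 were lowest there, and DDIT3 overlapped between the times without glucose but lay below 40 CPM in every library with glucose.

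Few transcription factors and regulators of the integrated stress response were called. Of 20 tested, 2 were higher and 4 were lower at 16 h, with a median of -0.05, shares that are near those of all genes. In a fit blocked by replicate number, which called 20.8% of all genes higher and 21.2% lower, 6 were higher and 5 lower, and with single libraries left out 1 to 4 were higher (1 without either 6 h library of siATF6, 4 without siControl 16 h replicate 3) and 2 to 6 lower (2 without siATF6 6 h replicate 1, siControl 16 h replicate 3 or siControl 6 h replicate 1). DDIT3, the pro-apoptotic factor CHOP, had 226, 208 and 226 CPM with siATF6 and 283, 266 and 253 CPM with siControl at 16 h, and 221 and 185 CPM with siATF6 and 335 and 334 CPM with siControl at 6 h. With siControl every 16 h library lay below both 6 h libraries, and with siATF6 the times overlapped. Over both siRNAs DDIT3 overlapped between the times, with a log2 fold change of -0.11 (SE 0.09, adjusted p = 0.380). About 31.6% of the length of its exons is shared with MARS, and reads without strand cannot be divided between the genes.

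ATF4 averaged 521 ± 70.5 CPM at 16 h and 458 ± 36.0 CPM at 6 h (log2 fold change 0.17, SE 0.07, adjusted p = 0.0866), and without replicate 1 at either time, a setting added after the data were seen, it passed the test. XBP1 averaged 165 ± 18.7 CPM at 16 h and 167 ± 22.8 CPM at 6 h (log2 fold change -0.02, SE 0.10, adjusted p = 0.890). Counts per gene do not tell the spliced form of XBP1 from the unspliced form. ATF6 had 21, 14.1 and 11.1 CPM with siATF6 and 91.3, 90.5 and 92.3 CPM with siControl at 16 h, against 18 and 12.9 CPM with siATF6 and 60.8 and 63.7 CPM with siControl at 6 h. The silenced gene was low in every siATF6 library at both times. With siControl every 16 h library was above both 6 h libraries. Over both siRNAs the time difference of ATF6 was 0.27 (SE 0.18, adjusted p = 0.297).

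The 4 regulators that fell included ATF5, a bZIP factor that is itself a target of the response, with 41.2, 49.6 and 50.4 CPM with siATF6 and 32.5, 33.7 and 31.0 CPM with siControl at 16 h. At 6 h ATF5 had 88.2 and 84.8 CPM with siATF6 and 70.5 and 69.9 CPM with siControl, and no library of 16 h reached these values (log2 fold change -1.0, SE 0.07, adjusted p = 7.2e-06). JDP2, a repressing bZIP factor, fell by 0.43, and VLDLR, a lipoprotein receptor, fell by 0.28, though the call of VLDLR was lost without any 1 of 3 libraries (siATF6 6 h replicate 1, siControl 16 h replicate 3, siControl 6 h replicate 1). NUPR1, a stress-induced chromatin protein, averaged 66.9 ± 16.6 CPM at 16 h and 38.8 ± 8.01 CPM at 6 h, a log2 fold change of 0.78 (adjusted p = 0.0208). Its call was lost without replicate 1 of siATF6 or of siControl at 6 h. KLHL24, the other regulator called higher, had every 16 h library above every 6 h library.

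Enzymes and transporters of amino acids, many of them known as targets of ATF4, were called in both directions. Among 15 amino acid and one-carbon enzymes 8 were higher and 2 were lower at 16 h (median 0.33), with 4 lower under the replicate block and none lower with 6 h replicate 2 kept. GOT1, the cytosolic aspartate transaminase, had 258, 228 and 228 CPM with siATF6 and 261, 204 and 191 CPM with siControl at 16 h, against 117 and 105 CPM with siATF6 and 110 and 91.4 CPM with siControl at 6 h. The times did not overlap (log2 fold change 1.10, SE 0.10, adjusted p = 2.21e-05). ALDH1L2, PYCR1 and PHGDH, enzymes of mitochondrial folate, proline and serine synthesis, had log2 fold changes of 0.98, 0.77 and 0.50. GPT2, a mitochondrial alanine transaminase, was lower at -0.62, and PSPH, the last step of serine synthesis, was lower at -0.30 and lost its call without any 1 of 4 libraries (both 6 h libraries of siATF6, siControl 16 h and 6 h replicate 3).

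Of 10 amino acid transporters 3 were higher and 3 lower. The glycine transporter SLC6A9 (0.78) and SLC43A1, a transporter of branched-chain amino acids (1.25), rose on the log2 scale. SLC7A5, the light chain of the large neutral amino acid exchanger, fell to 2465 ± 473 CPM at 16 h, against 4638 ± 128 CPM at 6 h (log2 fold change -0.93, adjusted p = 0.000115). SLC7A11, the cystine importer, was lower by a log2 fold change of -0.44, and with 6 h replicate 2 kept 1 transporter in place of 3 was lower.

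Cytosolic aminoacyl-tRNA synthetases, which charge tRNAs, counted 8 higher and 2 lower of 20, with a median of 0.11. WARS1 had 552, 542 and 518 CPM with siATF6 and 643, 643 and 624 CPM with siControl at 16 h. At 6 h WARS1 had 265 and 230 CPM with siATF6 and 274 and 250 CPM with siControl. All libraries of 16 h were above those of 6 h, and the log2 fold change was 1.19 (SE 0.07, adjusted p = 1.8e-06). SARS1, IARS1 and GARS1 rose by 0.63, 0.45 and 0.31 on the log2 scale. FARSA (-0.26) and TARS1 (-0.20) were lower. The call of FARSA was lost without siATF6 6 h replicate 1, siControl 16 h replicate 3 or siControl 6 h replicate 1, and that of TARS1 without these and 4 further libraries (siATF6 16 h replicates 1 and 2, siControl 16 h replicate 2, siControl 6 h replicate 3).

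DNA replication had the largest share of falls among the lists. Of 24 S phase genes, 22 were lower at 16 h and none was higher, with a median log2 fold change of -1.49, and 21 did not overlap between the times. MCM3, a subunit of the replicative helicase, had 45.8, 44.6 and 40.4 CPM with siATF6 and 42.9, 42.0 and 39.8 CPM with siControl at 16 h. Its 6 h values were 121 and 126 CPM with siATF6 and 118 and 115 CPM with siControl. The spread within each time was small, and the log2 fold change was -1.50 (SE 0.05, adjusted p = 3.79e-07). RRM2, the regulated subunit of ribonucleotide reductase, fell to 59.4 ± 5.62 CPM at 16 h, against 195 ± 22.3 CPM at 6 h. MCM6, MCM7 and RRM2 had log2 fold changes of -1.76, -1.58 and -1.73.

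E2F1, the factor that drives these genes in late G1, had 23.3, 12.4 and 12.0 CPM with siATF6 and 22.4, 13.4 and 15.1 CPM with siControl at 16 h, against 78.3 and 73.8 CPM with siATF6 and 76.8 and 60.8 CPM with siControl at 6 h (log2 fold change -2.15, SE 0.21, adjusted p = 6.01e-05). Replicate 1 kept the highest E2F1 level at 16 h under both siRNAs. WDR76, a DNA damage-associated WD40 protein, fell to 5.08 ± 0.508 CPM, against 22.6 ± 3.12 CPM at 6 h, and the exonuclease EXO1 to 7.12 ± 1.71 CPM, against 30.3 ± 7.35 CPM at 6 h. CCNE1 (0.21) and CCNE2 (-0.76), the cyclins of the G1 to S transition, were the 2 list members not called. CCND3, a D-type cyclin that pairs with CDK4 and CDK6, had 40.5, 49.4 and 44.9 CPM with siATF6 and 59.0, 91.5 and 91.5 CPM with siControl at 16 h. At 6 h CCND3 had 326 and 409 CPM with siATF6 and 268 and 360 CPM with siControl, and its log2 fold change of -2.52 (SE 0.23, adjusted p = 6.18e-05) was among the 12 largest falls. In 25 mM glucose its median was also lower at 16 h, at 216 CPM (178.3 to 313.8) against 377.7 CPM at 6 h (292.3 to 412.1).

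E2F factors are known to bind the letters TTTCCCGC and TTTGGCGC. These letters were counted on either strand, in windows from 250 bases before each RefSeq start to shortly after it. They occur in 13 of 20 S phase genes with a RefSeq promoter (65%), against 2.75% of all 27305 genes. The sequences below hold only the 250 bases before the start. The promoters of MCM6 (chr2:135876444-135876693, minus strand) and MCM3 (chr6:52284743-52284992, minus strand), from RefSeq on GRCh38.p14, are shown as examples of members that fell and hold the letters, which are in capitals.
MCM6: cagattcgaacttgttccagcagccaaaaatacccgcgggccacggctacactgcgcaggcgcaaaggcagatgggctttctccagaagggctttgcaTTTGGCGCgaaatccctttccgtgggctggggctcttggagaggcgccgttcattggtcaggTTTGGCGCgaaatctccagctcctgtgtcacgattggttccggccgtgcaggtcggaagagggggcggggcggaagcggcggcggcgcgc
MCM3: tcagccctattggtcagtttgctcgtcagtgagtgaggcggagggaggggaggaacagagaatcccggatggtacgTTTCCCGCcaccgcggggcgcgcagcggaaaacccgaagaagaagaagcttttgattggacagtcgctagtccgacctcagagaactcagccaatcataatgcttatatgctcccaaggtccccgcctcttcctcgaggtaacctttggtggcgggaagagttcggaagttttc
The letters describe the sequence, and no binding was measured.

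Genes of G2 and mitosis moved in the same direction with less uniform calls. Of 23, 14 were lower and none was higher at 16 h (median -0.64), and all 23 were lower in the blocked fit. BIRC5 (survivin), CCNA2, KIF11 and CDK1 had log2 fold changes of -1.15, -0.98, -0.98 and -0.90. CCNB1, a mitotic cyclin picked after its values were seen, ranged from 58.8 to 144 CPM at 16 h and from 116 to 151 CPM at 6 h, with a log2 fold change of -0.40 (adjusted p = 0.191). A list of 11 CDK inhibitors, quiescence genes and D-type cyclins had 3 higher and 3 lower. The lower ones were the cyclins CCND3 and CCND1 (-0.39), which drive the cycle, and CDKN2C (-1.0), an inhibitor of CDK4 and CDK6. The higher ones were the CDK inhibitors CDKN1A (0.55) and CDKN1C (2.28) and the antiproliferative gene BTG2 (0.54). CDKN1C was of very low level, with 0.323 to 2.595 CPM at 16 h (median 0.673) and 0.120 to 0.389 CPM at 6 h, and its times overlapped. The 3 that were higher were not called without siATF6 16 h replicate 1, either 6 h library of siATF6 or siControl 6 h replicate 3, and 1 was called without siControl 16 h replicate 1.

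All 20 cytosolic ribosomal protein genes were higher at 16 h (median 0.41), and in a fit that takes the spread from 29 libraries of the study 13 were. For 8 of the 20 the libraries of both times did not overlap, against 9.79% of all genes that were higher without overlap. RPLP0, the stalk protein of the large subunit, had 3767, 4164 and 3986 CPM with siATF6 and 3039, 3037 and 2654 CPM with siControl at 16 h. At 6 h RPLP0 had 2500 and 2460 CPM with siATF6 and 2131 and 1946 CPM with siControl. The times did not overlap, and the log2 fold change was 0.59 (SE 0.07, adjusted p = 0.000135). RPL3, RPL4, RPL30 and RPS18 had log2 fold changes of 0.57, 0.46, 0.47 and 0.55. Ribosomal proteins have many processed pseudogenes, so that reads can be divided among copies, and the pseudogene RPLP0P2 was among the largest rises at a log2 fold change of 3.73. Ribosome biogenesis factors counted 1 higher and 3 lower of 21, the lower share being near the 15.8% of all genes, with 10 lower under the replicate block. MYC, a factor that drives such genes, had 224 ± 38.5 CPM at 16 h and 259 ± 47.1 CPM at 6 h (log2 fold change -0.21, SE 0.08, adjusted p = 0.0551), and under the block it passed (adjusted p = 0.0484).

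Non-coding RNAs that host small nucleolar RNAs, many of which share a pyrimidine-rich start with ribosomal protein mRNAs and are degraded when translated, rose as well. Of 10 genes on this list 8 were higher and none was lower (median 0.69). GAS5 had 279, 388 and 305 CPM with siATF6 and 190, 276 and 168 CPM with siControl at 16 h, against 110 and 122 CPM with siATF6 and 92.0 and 102 CPM with siControl at 6 h. The lowest 16 h library was above the highest 6 h library (log2 fold change 1.29, SE 0.16, adjusted p = 0.000190). ZFAS1 (1.04), EPB41L4A-AS1 (0.81) and SNHG12 (0.69) also rose. EPB41L4A-AS1 shares 49.6% of its exon length with genes on the other strand, and ZFAS1 shares 26.1% with the other and 20.9% with its own strand, so that their reads cannot be divided from those of the partners. The nuclear RNAs NEAT1 (0.48, adjusted p = 0.256) and MALAT1 (-0.02) were the 2 not called.

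A transcript that starts with C followed by 4 or more pyrimidines was counted in RefSeq starts. Such a start occurred in 8 of 13 ribosomal protein genes (61.5%) and 3 of 8 snoRNA hosts (37.5%) that have a RefSeq start, against 5.14% of all genes. The first 20 bases of RPLP0 (chr12:120201092-120201111, minus strand), RPS18 (chr6:33272075-33272094, plus strand), ZFAS1 (chr20:49278642-49278661, plus strand) and SNHG12 (chr1:28581854-28581873, minus strand), from RefSeq on GRCh38.p14, show this start, with the leading pyrimidines in capitals.
RPLP0: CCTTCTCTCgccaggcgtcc
RPS18: CTCTCTTCCacaggaggcct
ZFAS1: CTTTCgcgtctgcggtgccc
SNHG12: CCTTTCTCCCCgccgcattc
RPL3 has only 4 leading pyrimidines in RefSeq, fewer than the rule requires, and is not shown. The starts in the cells were not measured.

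Glycolysis had more genes lower than higher at 16 h. Of 22 glycolysis and glucose uptake genes, 9 were lower and 2 were higher at 16 h (median -0.11). Without siATF6 6 h replicate 3, or with the spread taken from 29 libraries, 5 were lower, and under the replicate block 4 were higher. LDHA, lactate dehydrogenase, had 651, 1005 and 1029 CPM with siATF6 and 714, 834 and 764 CPM with siControl at 16 h, against 1511 and 1519 CPM with siATF6 and 1312 and 1327 CPM with siControl at 6 h (log2 fold change -0.77, adjusted p = 0.000661). Pyruvate kinase PKM (-0.49), PGAM1 (-0.41) and PFKFB3 (-0.87), which makes the activator of phosphofructokinase, were lower as well. HK2, the inducible hexokinase, went the other way, with 21.6 ± 8.88 CPM at 16 h and 5.91 ± 2.75 CPM at 6 h (log2 fold change 1.81, SE 0.39, adjusted p = 0.00738).

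In the hexosamine pathway, which makes UDP-GlcNAc for glycans and for O-GlcNAc marks on proteins, 5 of 8 genes were higher and 1 was lower (median 0.55), and 3 were higher without siATF6 6 h replicate 1. The 1 that was lower, GNPNAT1 (-0.28), lost its call without siATF6 16 h replicate 2, siControl 16 h replicate 2 or 3, or either 6 h library of siControl. OGA, the enzyme that removes O-GlcNAc, had 108, 103 and 99.8 CPM with siATF6 and 126, 117 and 111 CPM with siControl at 16 h. At 6 h OGA had 47.9 and 50.4 CPM with siATF6 and 50.5 and 53.1 CPM with siControl. The libraries of 6 h lay within 6 CPM of each other (log2 fold change 1.12, SE 0.06, adjusted p = 1.21e-06), but with 6 h replicate 2 kept the call was lost. GFPT1, the first enzyme of the pathway, rose by 0.64. TXNIP, a glucose-induced arrestin, stayed below the filter on low counts with means of 0.104 CPM at 16 h and 0.0408 CPM at 6 h.

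Lipid genes fell in part. Of 13 fatty acid synthesis genes 7 were lower and 1 was higher (median -0.23), with 4 lower without siATF6 16 h replicate 3 or either 6 h library of siATF6, or with the spread from 29 libraries. FADS2, a desaturase of polyunsaturated fatty acids, had 168, 177 and 170 CPM with siATF6 and 250, 256 and 271 CPM with siControl at 16 h, against 444 and 466 CPM with siATF6 and 451 and 463 CPM with siControl at 6 h. No library of 16 h came near those of 6 h (log2 fold change -1.13, SE 0.11, adjusted p = 3.52e-05). ELOVL6, a fatty acid elongase, was the 1 that rose (0.56). Of 20 cholesterol genes 3 were higher and 5 were lower, against 14.7% and 15.8% of all genes. MVK (-0.52), a kinase of the mevalonate steps, was among the lower ones. With the replicate block 5 were higher. The cholesterol exporters ABCG1 (1.27) and ABCA1 (1.34) rose, and the call of ABCA1 was lost without siATF6 6 h replicate 3.

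Of the lists of stress and death signalling, p53 targets counted 9 higher and none lower of 20 (median 0.26), a count that was 3 to 5 without siATF6 16 h replicate 1, either 6 h library of siATF6, siControl 16 h replicate 1 or siControl 6 h replicate 3. Among 21 death receptors and BCL2 family genes 6 were higher and 1 was lower, with 11 higher and 2 lower under the block. TNFRSF10B, the death receptor DR5, had 768, 774 and 762 CPM with siATF6 and 614, 547 and 530 CPM with siControl at 16 h. At 6 h TNFRSF10B had 426 and 392 CPM with siATF6 and 388 and 300 CPM with siControl, all below the 16 h libraries (log2 fold change 0.80, SE 0.08, adjusted p = 6.19e-05). CFLAR, which blocks caspase-8 at such receptors, was lower by a log2 fold change of -0.52. Lysosome and autophagy genes counted 8 higher and none lower of 25, with CTSL (0.60), WIPI1 (1.07) and the autophagy receptor SQSTM1 (0.54) among them.

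In the heat shock, immediate early and NF-kB lists the counts were larger with the replicate block, which called 20.8% of all genes higher and 21.2% lower. In the main fit the shares of immediate early genes called higher and of NF-kB genes called lower were near those of all genes (14.7% and 15.8%). Of 16 cytosolic heat shock genes 1 was called higher, or 2 without siControl 16 h replicate 2. It was HSPA6, with 1075, 176 and 156 CPM with siATF6 and 1048, 107 and 248 CPM with siControl at 16 h. At 6 h it had 53.6 and 18.4 CPM with siATF6 and 62.0 and 13.9 CPM with siControl, so that replicate 1 was highest at both times under both siRNAs. HSPA6 had an adjusted p of 0.0237, lost without any 1 of 5 libraries (siATF6 16 h replicate 1, siATF6 6 h replicates 1 and 3, siControl 16 h replicate 1, siControl 6 h replicate 3). With the block 11 heat shock genes were higher, and 8 were without replicate 1 at either time, a fit that called 17.8% of all genes higher and 17.7% lower. Immediate early genes counted 3 higher of 18, with 1 without siATF6 6 h replicate 3, 5 without replicate 1 and 11 under the block. NF-kB subunits and targets counted 3 lower of 18 and 8 under the block or without replicate 1, with 1 left without siATF6 16 h replicate 2, siATF6 6 h replicate 1, siControl 16 h replicate 2 or 3 or siControl 6 h replicate 1.

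The largest changes included genes of low level. Among the 12 largest rises with no overlap within either siRNA, LAMP3, a lysosomal membrane protein induced by the unfolded protein response, had 10.6, 6.58 and 5.82 CPM with siATF6 and 14.7, 9.80 and 10.3 CPM with siControl at 16 h. At 6 h LAMP3 had 0.870 and 0.522 CPM with siATF6 and 1.55 and 0.819 CPM with siControl (log2 fold change 3.34, SE 0.27, adjusted p = 1.42e-05). CDH15, a cadherin of muscle, rose by 2.90 (adjusted p = 1.6e-05) and had 6.26, 4.76 and 3.90 CPM with siATF6, against 16.8, 16.1 and 18.9 CPM with siControl at 16 h. PRPH, a neuronal intermediate filament, averaged 7.54 ± 1.56 CPM at 16 h and 1.05 ± 0.244 CPM at 6 h, a log2 fold change of 2.82, and shares much of its exons with AC125611.4 on the other strand (63.3% and 56.2% of the exon length of the pair), which rose by 2.50, so their reads cannot be divided. ARC, a cytoskeletal immediate early gene, had the highest fold (4.14, adjusted p = 0.0253) with 43.8, 3.83 and 3.24 CPM with siATF6 and 46.2, 2.85 and 7.53 CPM with siControl at 16 h. Its level came mostly from replicate 1, and the call was lost without any 1 of 5 libraries (siATF6 6 h replicates 1 and 3, siControl 16 h replicate 1, siControl 6 h replicates 1 and 3). The calls of RPLP0P2 and ATP6V0D2 were lost without either 6 h library of siATF6, siControl 16 h replicate 1 or siControl 6 h replicate 3, and that of PGF without replicate 1 of siATF6 at 16 or 6 h or either 6 h library of siControl.

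Of the 12 largest falls, CLDN2, a pore-forming tight junction protein, had 0.872, 1.32 and 1.58 CPM with siATF6 and 0.919, 1.82 and 1.98 CPM with siControl at 16 h. At 6 h CLDN2 had 13.9 and 13.4 CPM with siATF6 and 8.19 and 10.1 CPM with siControl, with a log2 fold change of -3.0 (SE 0.26, adjusted p = 2.24e-05). CYP24A1, the vitamin D hydroxylase, fell to 254 ± 116 CPM, against 1057 ± 186 CPM at 6 h (log2 fold change -2.11, adjusted p = 0.00204), with replicate 1 lowest at 16 h under each siRNA. E2F1, EXO1, WDR76 and FAM111B among these falls are known as cell cycle-regulated genes. The other falls were BCAS1, OLR1, CCND3, MGAM, JPH2 and CPS1, and the call of OLR1 was lost without replicate 1 of siATF6 or of siControl at 6 h and with 6 h replicate 2 kept.

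**Figure D3:**
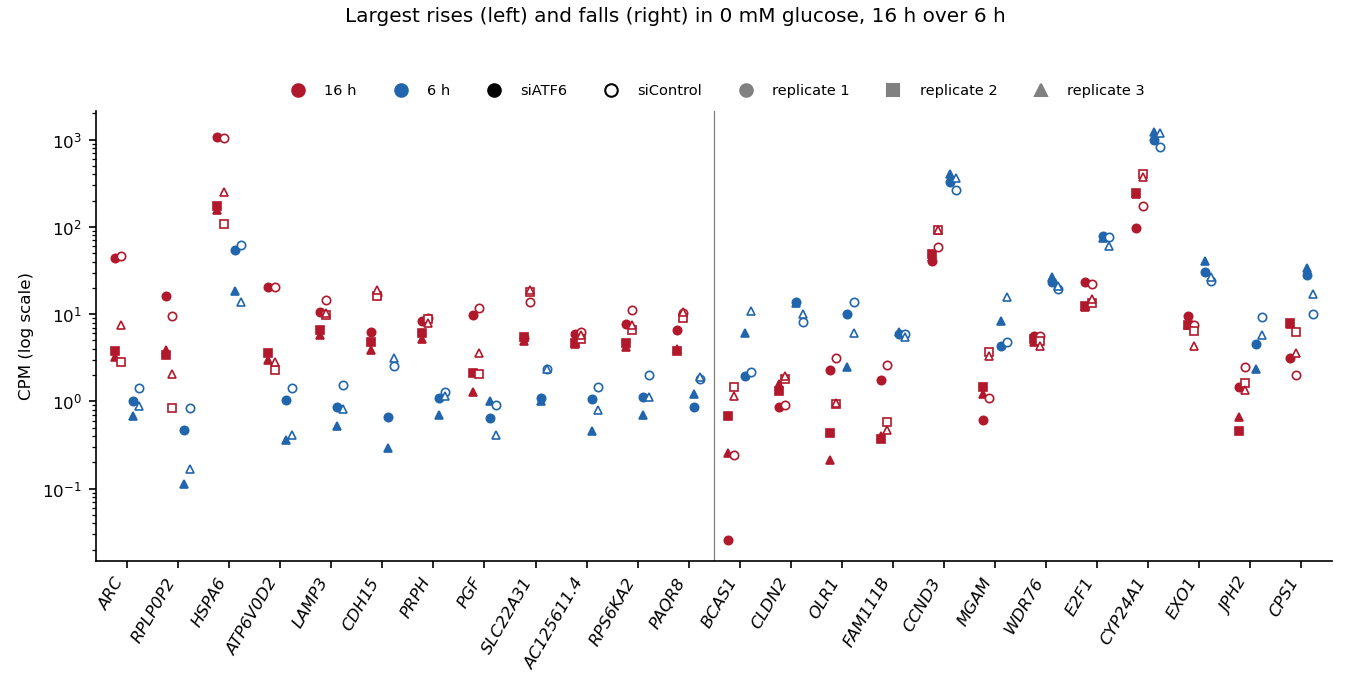
CPM on a log scale of the 12 genes with the largest rise (left of the line) and the 12 with the largest fall (right) in 0 mM glucose, in each library of 16 h (red) and 6 h (blue), with filled markers for siATF6, open markers for siControl and marker shapes for the replicate. ARC, HSPA6, ATP6V0D2 and PGF at 16 h show replicate 1 (circles) far above replicates 2 and 3, whereas in LAMP3, PRPH and WDR76 the replicates lie closer together. For LAMP3 replicate 1 was still the highest at each time under each siRNA.

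Of 12 epithelial and A549 genes 1 was higher and 4 were lower (median -0.36), and 8 were lower under the block or without replicate 1. The 1 that was higher was CLDN4, a tight junction protein (0.61, adjusted p = 0.00953), and with 6 h replicate 2 kept it had -0.0877 (adjusted p = 0.863). KRT8, a keratin of simple epithelium, fell to 2161 ± 602 CPM at 16 h, against 3798 ± 662 CPM at 6 h (log2 fold change -0.83, adjusted p = 0.00936), and MUC1 had a log2 fold change of -1.31. The summed level of the list was 10991 to 19735 CPM at 16 h and 18908 to 21653 CPM at 6 h. Markers of other cells had sums at 16 and 6 h of 4.12 to 13.5 and 9.31 to 22.6 CPM for fibroblasts, 3.86 to 12.6 and 3.59 to 12.3 CPM for endothelium, and 28.3 to 104 and 20.4 to 43.1 CPM for blood cells. Of those tested, the fibroblast markers COL1A1 (-0.79), THY1 (-1.07) and COL3A1 (-2.34), the endothelial CDH5 (-3.63) and the monocyte marker CD14 (-1.66) were lower at 16 h and none was higher. CD68, a macrophage marker that other cells also express, gave most of the blood sum, with 56.1 ± 28.5 CPM at 16 h and 28.2 ± 10.1 CPM at 6 h (adjusted p = 0.111). Their part in the other lists was not tested.

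The same interval in 25 mM glucose showed which time differences also occur in fed cells. There 2619 of 18615 genes (14.1%) passed, 1121 (6.02%) higher and 1498 (8.05%) lower at 16 h, and 4254 passed with the replicate block and 1462 without siControl 25 mM 6 h replicate 1. The time difference itself differed between 0 and 25 mM glucose for 4750 genes (25.5%), with 2424 (13%) in which it was more positive and 2326 (12.5%) in which it was more negative without glucose. Time since transfection and plating passed in both media, so that only this difference separates it from the time without glucose.

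Of 22 ER chaperones 1 was higher and 2 were lower at 16 h in 25 mM glucose (median 0.06), and for 16 the time difference was more positive without glucose. HSPA5 had a time difference of 1.12 without glucose and -0.44 with glucose (adjusted p = 0.00858), and the difference between them was 1.57 (SE 0.15, adjusted p = 1.24e-06). HSPA5 was the gene by which 6 h replicate 2 was left out, so these p-values were drawn from libraries chosen by its values. Translocation and transport genes counted 7 higher and none lower of 25 with glucose, and 20 differed towards 0 mM. S phase genes counted 4 higher and none lower of 24 in 25 mM glucose (median 0.13), and for 22 the time difference was more negative without glucose. MCM3 had 171 ± 16.0 CPM at 16 h and 142 ± 8.07 CPM at 6 h in 25 mM glucose, a log2 fold change of 0.27 (adjusted p = 0.00528), and its difference between the media was -1.76 (SE 0.08, adjusted p = 9.72e-10). None of the 20 ribosomal protein genes passed in 25 mM glucose, and for 16 the time difference was more positive without glucose, or for 3 with the spread taken from 29 libraries. SnoRNA hosts and nuclear RNAs counted none higher and 2 lower of 10 there, and 8 differed.

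Regulators of the integrated stress response changed in fed cells. In 25 mM glucose 19 of 20 were lower at 16 h (median -1.34), and for 18 the time difference was more positive without glucose (median 1.64). DDIT3 had 4.86 ± 0.405 CPM at 16 h and 29.6 ± 4.11 CPM at 6 h in 25 mM glucose (log2 fold change -2.60, SE 0.07, adjusted p = 2.18e-13). Every fed library of 16 h was below every fed library of 6 h, and the difference between the media was large beside its error (2.50, SE 0.09, adjusted p = 9.19e-11). ATF4 had 181 ± 35.4 CPM at 16 h and 372 ± 54.4 CPM at 6 h in 25 mM glucose (log2 fold change -1.04, adjusted p = 1.7e-06), and XBP1 had 42.9 ± 4.75 and 125 ± 35.1 CPM at 16 and 6 h there (-1.51, adjusted p = 8.06e-08). The largest positive differences between the media included KLHDC7B (4.35), ADM2 (4.27) and CHAC1 (3.81). CHAC1, which degrades glutathione, had 40.0 ± 14.2 CPM at 16 h and 48.2 ± 11.5 CPM at 6 h without glucose, against 2.11 ± 0.400 and 36.3 ± 9.05 CPM with glucose. ADM2, a secreted peptide of the adrenomedullin family, had 20.3 ± 3.13 and 18.9 ± 2.69 CPM without glucose and 0.685 ± 0.305 and 12.4 ± 1.74 CPM with glucose at 16 and 6 h.

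**Figure D4:**
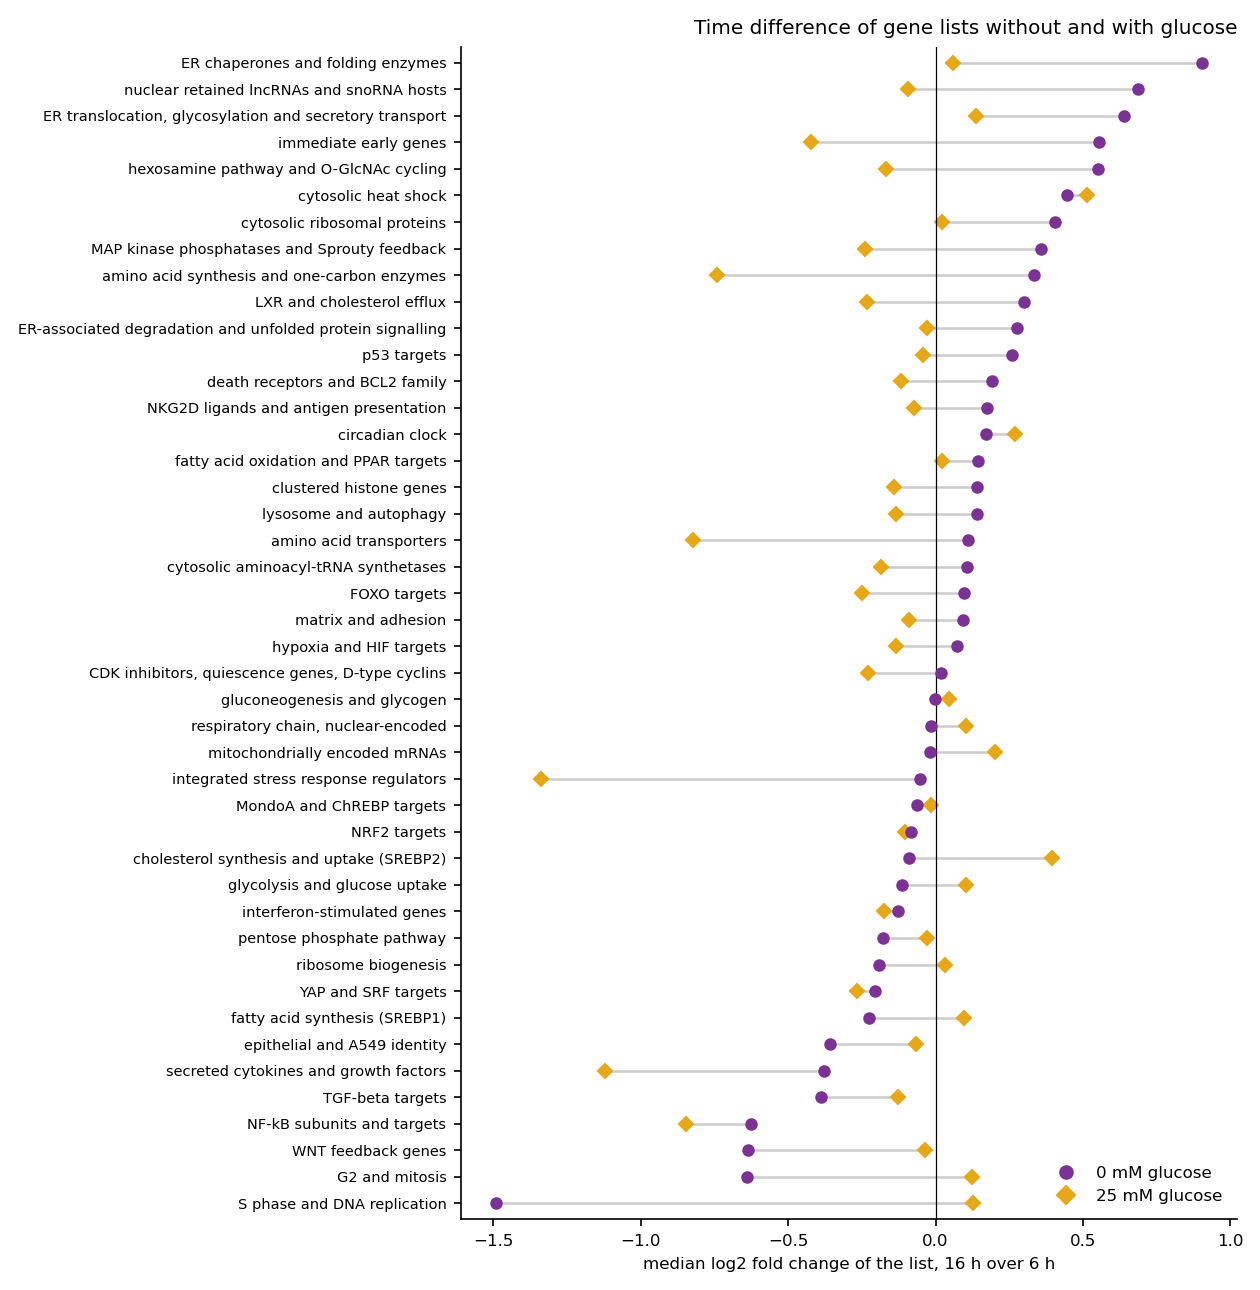
Median log2 fold change of each gene list, 16 h over 6 h, in 0 mM glucose (purple circles) and 25 mM glucose (yellow diamonds), joined by a line. ER chaperones stand at 0.90 and 0.06, S phase genes at -1.49 and 0.13, and integrated stress response regulators at -0.05 and -1.34 in 0 and 25 mM glucose.

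Among amino acid enzymes none was higher and 12 of 15 were lower at 16 h in 25 mM glucose (median -0.74), and for 13 the time difference was more positive without glucose. OGA fell in fed cells, with 109 ± 12.1 CPM at 16 h and 165 ± 15.2 CPM at 6 h, the direction opposite to that without glucose (difference 1.73, SE 0.09, adjusted p = 4.34e-09). PRDM16, a zinc finger factor of brown fat, had 4.26 ± 1.49 CPM at 16 h and 0.241 ± 0.0949 CPM at 6 h without glucose and 0.472 ± 0.108 and 0.349 ± 0.141 CPM with glucose (difference 3.66, adjusted p = 7.19e-06). On the negative side SYT12, a synaptotagmin, was lower at 16 h without glucose (0.776 ± 0.269 against 3.97 ± 0.439 CPM at 6 h) and higher with it (7.93 ± 1.03 against 4.15 ± 0.437 CPM at 6 h), with a difference of -3.33 (adjusted p = 4.41e-09). CLDN2 (-3.29), FAM111B (-3.14), RNF43 (-2.75), NES (-2.37) and the replication factor MCM10 (-2.31) followed, and 59.5% of the exon length of RNF43 is shared with another gene.

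Other genes changed with time in both media. CRY1, a repressor of the circadian clock, had 29 ± 3.04 CPM at 16 h and 73.3 ± 1.35 CPM at 6 h without glucose and 27.8 ± 3.86 and 64.2 ± 6.63 CPM with glucose. Its log2 fold changes were -1.35 and -1.22 in 0 and 25 mM glucose, and the difference of -0.12 (SE 0.12, adjusted p = 0.511) missed the threshold. SLC7A5 (-0.93 and -0.85) and ATF5 (-1.0 and -0.86) also passed in both media, with differences of -0.07 and -0.14 whose adjusted p were 0.685 and 0.527. Misses of the threshold do not show that these differences are 0. Cholesterol genes as a list counted 7 higher and none lower of 20 with glucose, and for 6 the time difference was more negative without glucose, 12 under the replicate block and 3 with replicates 1 and 3 alone.

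The time difference was also taken within each siRNA. With siATF6 2991 genes (16.6%) passed, 1392 (7.75%) higher and 1599 (8.9%) lower, and with siControl 2133 (11.9%) passed, 1048 (5.83%) higher and 1085 (6.04%) lower. With the replicate block 5787 and 4924 passed in siATF6 and siControl. These counts fell to between 1068 and 1991 in siATF6 without 6 h replicate 1 or 3 or 16 h replicate 2 or 3 of siATF6, and to between 852 and 1377 in siControl without the same libraries of siControl. ER chaperones counted 18 higher with siATF6 and 17 with siControl of 22, S phase genes 21 lower under each siRNA, and ribosomal proteins 20 higher with siATF6 and 7 with siControl.

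The test of whether the time difference itself differed between siATF6 and siControl called 0 of 17970 genes in edgeR. At an unadjusted p under 0.05 it had 496 genes (2.76%), DESeq2 called 9, and edgeR called 12 with the replicate block. For HSPA5 the difference was -0.00 (SE 0.21), with log2 fold changes of 1.12 under each siRNA. HSP90B1 had 1.15 with siATF6 and 1.37 with siControl (difference -0.23, SE 0.18). CCND3 had -3.05 with siATF6 and -1.95 with siControl, a difference of -1.10 (SE 0.30) that did not pass. Levels of HSP90B1 and CRELD2 were lower with siATF6 than with siControl at both times, while a difference in their fold over time was not detectable with 3 libraries of 16 h against 2 of 6 h per siRNA.

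**Figure D5:**
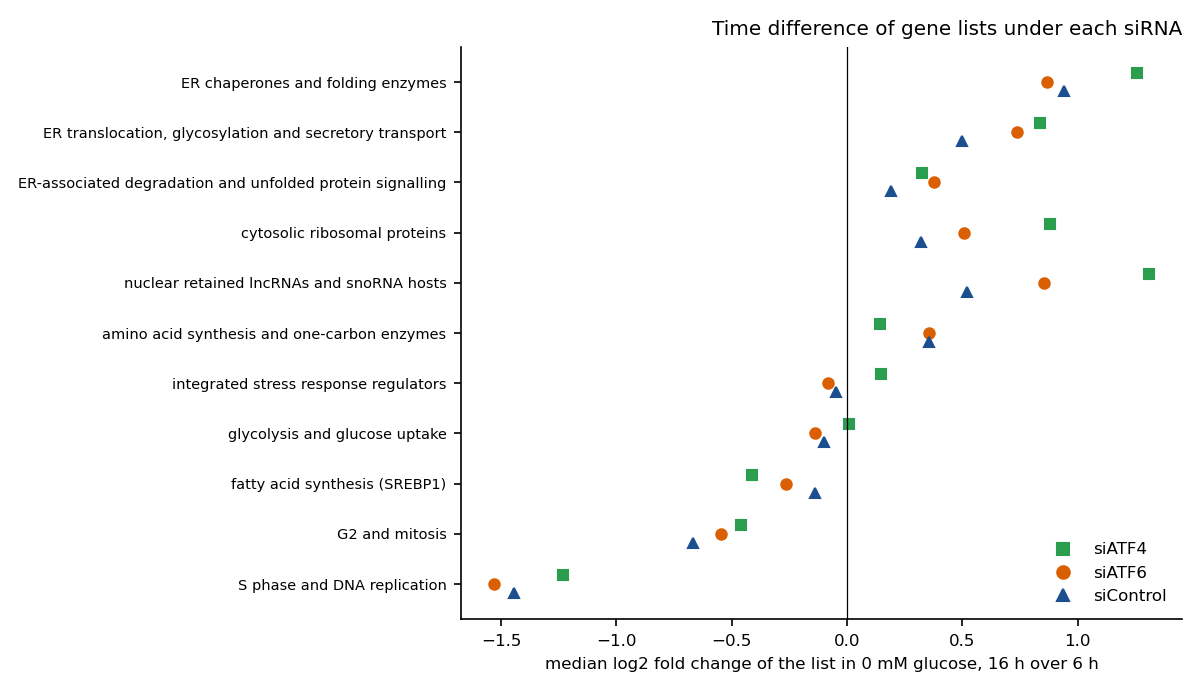
Median log2 fold change of 11 gene lists in 0 mM glucose, 16 h over 6 h, with siATF4 (green squares), siATF6 (orange circles) and siControl (blue triangles). ER chaperones stand at 1.26, 0.87 and 0.94, ribosomal proteins at 0.88, 0.51 and 0.32 and S phase genes at -1.23, -1.53 and -1.45 with siATF4, siATF6 and siControl.

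With siATF4 1712 of 18288 genes (9.36%) passed, 868 (4.75%) higher and 844 (4.62%) lower at 16 h. The count rests on few libraries, since it was 297 without siATF4 6 h replicate 2, 668 without siATF4 6 h replicate 1 and 2646 without siATF4 16 h replicate 2. At 6 h siATF4 had replicates 1 and 2, and replicate 3 held few counts and was not used. In both, HSPA5 was higher in 0 than in 25 mM glucose, at 4910 against 787 CPM in replicate 1 and at 1793 against 560 CPM in replicate 2 on unscaled totals. On totals scaled over the 15 libraries HSPA5 had 11580, 9331 and 9437 CPM at 16 h and 4731 and 1676 CPM at 6 h with siATF4, so the 6 h libraries were far apart. MCM3 had 46.5, 45.1 and 38.2 CPM at 16 h and 115 and 114 CPM at 6 h. ATF4 itself was lowered in part, to 178, 150 and 211 CPM at 16 h and 206 and 110 CPM at 6 h. With siATF6 and siControl, on the totals of the 20 libraries, ATF4 ranged from 427.7 to 596.4 CPM at 16 h and from 413.3 to 501.5 CPM at 6 h. ER chaperones counted 14 higher and none lower of 22 (median 1.26), S phase genes 19 lower of 24 (-1.23), ribosomal proteins 18 higher of 20 (0.88), and snoRNA hosts and nuclear RNAs 8 higher of 10 (1.31). Regulators of the integrated stress response counted none higher and 4 lower of 20 (0.15). HSPA5 had a log2 fold change of 1.66 (SE 0.33, adjusted p = 0.0107) and MCM3 one of -1.40 (SE 0.12, adjusted p = 6.41e-05). The difference between the siATF4 time difference and the mean of those with siATF6 and siControl was called for 0 genes in edgeR, with 1022 (5.59%) at an unadjusted p under 0.05 and 1 in DESeq2, and for HSPA5 it was 0.53 (SE 0.39).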

How the data were processed

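RNA of A549 cultures was sequenced from poly(A)-enriched, non-stranded libraries, per the labels' protocols. The submitters' processing notes name fastp, STAR and RSEM with GRCh38, without versions. No annotation release was found among the labels. The authors deposited expected counts per gene for each library, which were rounded to whole numbers, each column being tied to its library by the name that the labels record.

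Genes were tested with edgeR 4.0.16 (R 4.3.3): a low-count filter with filterByExpr on the groups (at least 10 counts, total of 15), TMM scaling, robust quasi-likelihood fits, F tests of 16 h minus 6 h, and Benjamini-Hochberg adjustment over all genes at 0.05. The time test in 0 mM glucose used 10 libraries with the siRNA as a term. Tests within each siRNA used their 4 group means. Tests with 25 mM glucose used 20 libraries and those with siATF4 used 15. Values are CPM on TMM-scaled totals of the 20 libraries unless stated, as mean ± SD. Standard errors were taken from the log2 fold change and its F value. The pipeline was tested on simulated data.

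The libraries, the 47 gene lists and the tests were chosen with earlier results of these data known. The rule for named genes took the 12 largest changes per direction with a mean of at least 5 CPM at either time and no overlap within either siRNA, up to 6 called differences per direction between media or siRNAs, up to 4 called members of each list with the smallest adjusted p and up to 2 in the opposite direction, and ATF4, ATF6, DDIT3, HSPA5, XBP1, TXNIP and MYC. Some genes that the rule named are not reported here.

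The labels call the replicates biological, without saying more, so p-values measure the spread between libraries of 1 line. At 6 h the siATF6 and siControl libraries of a replicate number lay close on the first principal component. Their scores were 2.40 and 2.86 in replicate 1 and -30.7 and -33.5 in replicate 3. The fit and the SDs count such libraries as separate cultures. The p-values therefore do not measure the spread between replicate numbers, of which 6 h holds only 1 and 3. The mean chi-square per gene between any pair of replicates was 10.1 or more, against 1 for pure counting error. Abundant genes weigh most in that mean, and genes near 1 CPM rest on fewer counts. Libraries with the same replicate number deviated together in 0 mM glucose, with correlations of 0.25 to 0.44 over 4 pairs. With 2 libraries per siRNA at 6 h, their deviations from the group mean mirror each other. The 4 pairs are thus not independent, and the pairs of other numbers (-0.44 to -0.25) are fixed by them. The number was used as a block in an alternative fit. Other alternatives were DESeq2 1.42.0, other size factors, no filter, more or fewer libraries and each library left out in turn. Promoter letters and transcript starts came from a RefSeq table of GRCh38.p14, in which genes were matched by symbol. Exon overlap was measured in GENCODE 29, and besides the genes named with it ATF5, GNPNAT1, RPL30, RRM2, SQSTM1, TGFB2 and WIPI1 share 20.2 to 35.6% of their exon length with genes on 1 strand.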

Additional observations from a re-analysis of the deposited data

Results flagged for a closer look

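For 4750 genes the 16 h minus 6 h difference differed between 0 and 25 mM glucose in edgeR's interaction test, and the named ones are given here as differences on the log2 scale, 0 minus 25 mM. It was 4.35 for KLHDC7B and 4.27 for ADM2, both of which were lower at 16 h than at 6 h with glucose. For CHAC1 it was 3.81, and for DDIT3 2.50, XBP1 1.5 and ATF4 1.22. RPLP0P2 had 3.96, with the call lost without siATF6 or siControl 0 mM 6 h replicate 3 or 25 mM 6 h replicate 1 of either siRNA. ARC had 3.86, with the call lost without any of the 8 libraries of 6 h. PRDM16 had 3.66, from a rise without glucose. HSPA5 had 1.57, with opposite directions over time in the media. ATF6 had 0.68 (adjusted p = 0.0168) over both siRNAs, one of which targets it, and the call was lost without siATF6 0 mM 6 h replicate 3, without siATF6 25 mM 6 h replicate 1 and with replicates 1 and 3 alone. On the negative side the difference was -3.33 for SYT12, -3.29 for CLDN2, -3.14 for FAM111B, -2.75 for RNF43, -2.37 for NES and -2.31 for MCM10.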

How the results depend on the processing

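In 0 mM glucose 4086 to 5268 genes passed with each library left out, 6241 in DESeq2, 4972 without a filter, 4793 with 29 libraries, 4289 with replicates 1 and 3 alone, 5990 with 6 h replicate 2 kept, 7543 with the replicate block and, in a setting chosen after seeing the data, 6446 without replicate 1 at either time. The block changed the calls of PDK4, THBS1 and MYC among the named genes and the list counts given above. In siControl 777 passed with replicates 1 and 3 alone and 4924 with the block, and 852 to 2682 with a library left out; in siATF6 the values were 1300, 5787 and 1068 to 3235. For the difference between siATF6 and siControl the counts were 9 in DESeq2, 12 without a filter, 1 with 29 libraries, 12 with the block, and 0 to 2 with a library left out (1 without siControl 6 h or siATF6 6 h replicate 1, 2 without siControl 16 h replicate 1). In 25 mM glucose 1509 passed with 29 libraries, 1107 with replicates 1 and 3 alone and 1932 with 6 h replicate 2 kept. With the block 4254 passed there, and 1462 to 2976 with a library left out. For the difference between media the counts were 3074 with 29 libraries, 5930 with 6 h replicate 2 kept, 7110 with the block and 3804 to 4818 with a library left out. With siATF4 2816 passed in DESeq2, 2640 without a filter and 297 to 2646 with a library left out, and for its difference 1 in DESeq2, 138 without a filter and 0 with any library left out. The cause of these shifts was not tested. CLDN4 reversed to -0.0877 (adjusted p = 0.863) with 6 h replicate 2 kept, against 0.61. The siATF4 results with 29 libraries and with replicates 1 and 3 alone were not run.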

Other observations

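Lists outside the comparisons above are given here by their counts in 0 mM glucose. Of 18 interferon-stimulated genes 2 were higher at 16 h and 4 were lower (median -0.13), with 4 higher under the replicate block and 5 without replicate 1. Of all genes 14.7% were higher and 15.8% were lower. STAT2 (0.90, adjusted p = 6.59e-05) and IRF9 (0.91, adjusted p = 0.00259), partners in the interferon-activated factor ISGF3, rose on the log2 scale in edgeR's test, although IRF9 shares 48.4% of its exon length with another gene on the same strand. OAS3, which makes oligoadenylates on double-stranded RNA, fell by 0.95 (adjusted p = 6.96e-05). In 25 mM glucose OAS3 had a log2 fold change of 0.32 (adjusted p = 0.0215), and the difference between the media was -1.26 (adjusted p = 1.97e-06). Of 17 YAP and SRF targets 7 were lower and 1 was higher, or 2 higher without replicate 1 of siControl at 16 or 6 h. TEAD1, the DNA-binding partner of YAP, fell by 1.40 (adjusted p = 1.04e-05), and the receptor kinase AXL rose by 0.78 (adjusted p = 0.000115). Of 12 TGF-beta targets 5 were lower and none was higher (median -0.39), with 8 lower under the block. TGFB2, a ligand of that pathway, fell by 1.26 (adjusted p = 1.47e-05).

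Of 18 clock genes 5 were higher and 2 were lower, or 8 higher without replicate 1, among them NR1D1 (0.92), a repressor of the clock, and CIART (1.66). Of 18 HIF targets 5 were higher and 2 lower, or 1 lower with replicates 1 and 3 alone. EGLN1, the oxygen-sensing hydroxylase that marks HIF for degradation, fell by 1.11 (adjusted p = 2.05e-05), and the histone demethylase KDM3A rose by 0.70 (adjusted p = 0.000192).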
